A study of Arabidopsis thaliana with 6 samples.

Results

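The 10 genes described here are ZFP1 to ZFP8, GIS and GIS2 of Arabidopsis thaliana, which encode zinc-finger proteins with a single C2H2 finger. They were selected by locus name, as a family whose log2 differences between Mock and DEX were already known, from 32627 genes on the array: AT1G80730 (ZFP1), AT5G57520 (ZFP2), AT5G25160 (ZFP3), AT1G66140 (ZFP4), AT1G10480 (ZFP5), AT1G67030 (ZFP6), AT1G24625 (ZFP7), AT2G41940 (ZFP8), AT3G58070 (GIS) and AT5G06650 (GIS2). All 10 had a value on every array, each from 1 feature. Per the RefSeq gene table, ZFP1, ZFP4, ZFP5, ZFP6 and ZFP7 lie on chromosome 1, ZFP8 on chromosome 2, GIS on chromosome 3, and ZFP2, ZFP3 and GIS2 on chromosome 5.

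All plants carried 35S::SUP-GR in the Landsberg erecta (Ler) wild type. The transgene joins SUPERMAN (SUP), itself a single-finger C2H2 protein of the flower, to the steroid-binding domain of the glucocorticoid receptor, so that dexamethasone (DEX) is needed for the fusion to enter the nucleus. The 35S promoter is active in most plant tissues, so the fusion is not limited to the cells that normally make SUP. The Mock group (3 arrays) received ethanol and the DEX group (3 arrays) received dexamethasone at 10 µM, diluted from 30 mM; this dose is given in the labels with a unit of length, taken here to mean a concentration. Inflorescences were dipped for 1 min with Silwet L-77 at 0.015%. Buds that had not reached stage 10 were taken 4 hours later, from plants kept at 22 °C in constant light. The labels give no plant age and no number of plants per sample. The design has no DEX arm lacking the transgene among the samples analysed here, so an effect of DEX itself cannot be told apart from one of the fusion.

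C2H2 zinc fingers of this plant family carry a short conserved helix that reads DNA, and many members, SUP among them, also carry an EAR motif that recruits corepressors. GIS, GIS2 and ZFP8 are known as activators of trichome (leaf hair) initiation on inflorescence stems, branches and floral organs, where they relay gibberellin and cytokinin signals. ZFP5 and ZFP6 act above them in the same route, and the route ends at the MYB and helix-loop-helix complex built on GL1, GL3, EGL3 and TTG1. ZFP3 is known for reducing the response of germinating seeds to abscisic acid, together with ZFP4, and ZFP2 for delaying the shedding of floral organs when overproduced.

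The arrays had median feature intensities between 74.2 and 77.3. Mock replicate 1 stood apart in its organelle transcripts, where chloroplast genes had a median deviation of -0.52 (log2) from their means and mitochondrial genes one of -0.48, against -0.02 to 0.22 on the other 5 arrays. Flower markers were bright, as AP1 was at 1363 to 1791 and all 6 of them exceeded the median gene on average. Of 4 root hair markers, RHD6, RSL4 and EXPA7 read between 1.14 and 8.72, while COBL9 read between 123 and 289. Of 2 mature pollen markers, VGD1 read between 218 and 523 and SKS12 between 7.53 and 35.1. SUP itself differed by 0.09 (SE 0.11, log2) between the groups, and whether its feature reads the transgene was not tested.

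The whole family was dim on these arrays. Every one of the 10 genes had a mean below the median gene, whose mean intensity was 72.9, and single readings ran from 0.792 (ZFP5, DEX replicate 3) to 67.5 (ZFP7, Mock replicate 1). Intensity depends on the probe as well as on the transcript, so the 10 genes are not ranked against each other by expression. Brightness bears on precision instead. Among all genes the median spread between arrays of a group was 0.62 (SD of log2 intensity) for the dimmest 25% of genes and 0.43 from there up to the median gene, against 0.17 and 0.12 in the 2 brighter classes of the same size. ZFP3, ZFP5, ZFP6 and GIS belonged to the dimmest 25% and the other 6 genes to the next class. The spread within groups was smallest for ZFP7 (0.23) and ZFP5 (0.37) and largest for ZFP2 (1.01) and ZFP3 (1.08).

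**Figure D1:**
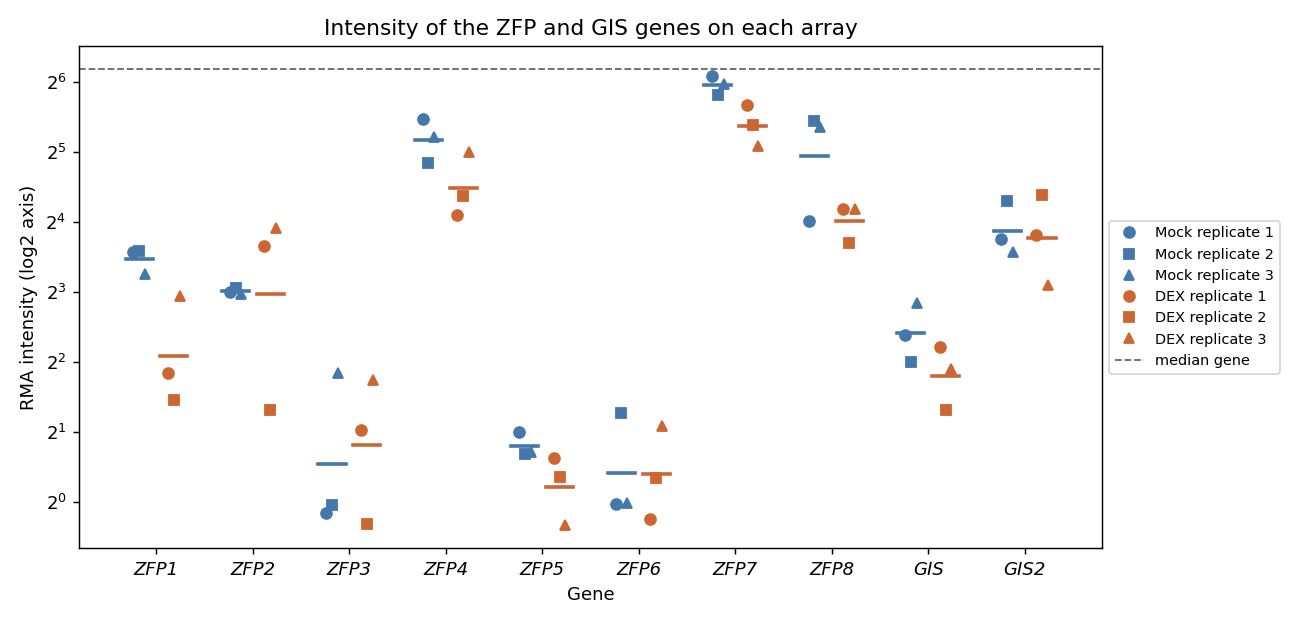
Intensity of each gene on each array, on a log2 axis, with 3 Mock arrays in blue and 3 DEX arrays in orange; symbols mark the replicate number, bars the group mean of the log2 values, and the dashed line the median gene (72.9). All points lie below the dashed line, and the groups are apart for ZFP1, ZFP5 and ZFP7 only.

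After DEX the family was lower on balance, and none of its genes was called. Differences are DEX minus Mock on the log2 scale, with the standard error (SE) from a limma fit over all genes. Of the 10 genes, 9 had a difference below 0, where 49.1% of all genes did, and the median was -0.58, where that of all genes was 0.01. None was called in either direction at an adjusted p under 0.05 (limma, Benjamini-Hochberg over all genes), where 0.0521% of all genes were. At an unadjusted p under 0.05, 2 genes were lower (ZFP1 and ZFP7), where 5.92% of all genes were lower, and none was higher, where 4.50% were. A prior that follows intensity called none of the 10, where it called 1.32% of all genes, and so did 16 added to each intensity, where 0.625% were called. The groups did not overlap for 3 genes, each lower in DEX (ZFP1, ZFP5 and ZFP7), where 9.20% of all genes were lower without overlap and 8.74% higher. Among 9181 protein-coding genes within the same range of mean intensity, 54.2% were below 0 and the median was -0.06. The family was picked with results of this comparison known, so these counts describe it and test nothing. With 16 added, 8 of the 10 were below 0, as ZFP2 turned above it; with quantile normalization or median centring of the arrays also 8, as ZFP6 turned.

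The flower markers moved the same way as most of the family. Of the 6, all had differences below 0, where 49.1% of all genes did, with a median of -0.30. Their summed intensity was 4761 to 5078 on the Mock arrays and 3837 to 4070 on the DEX arrays. None was called (limma, adjusted p under 0.05), where 0.0521% of all genes were. At an unadjusted p under 0.05, 3 were lower, where 5.92% of all genes were. LFY, which starts flower formation, differed by -0.82 (SE 0.18, limma adjusted p = 0.251; 0.0155 with the prior that follows intensity). SEP3, a cofactor of the organ identity proteins, differed by -0.47 (SE 0.16), but by 0.09 when a second, very dim feature was averaged in. AP1 differed by -0.28 (SE 0.11) and PI by -0.32 (SE 0.16). The summed root hair markers were at 140.9 to 235 on Mock and 129 to 300.4 on DEX arrays, and the pollen markers at 312 to 538 and 234 to 367. Their part in the differences of the family was not tested. In bud samples, fewer cells of a type and less RNA per cell cannot be told apart.

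**Figure D2:**
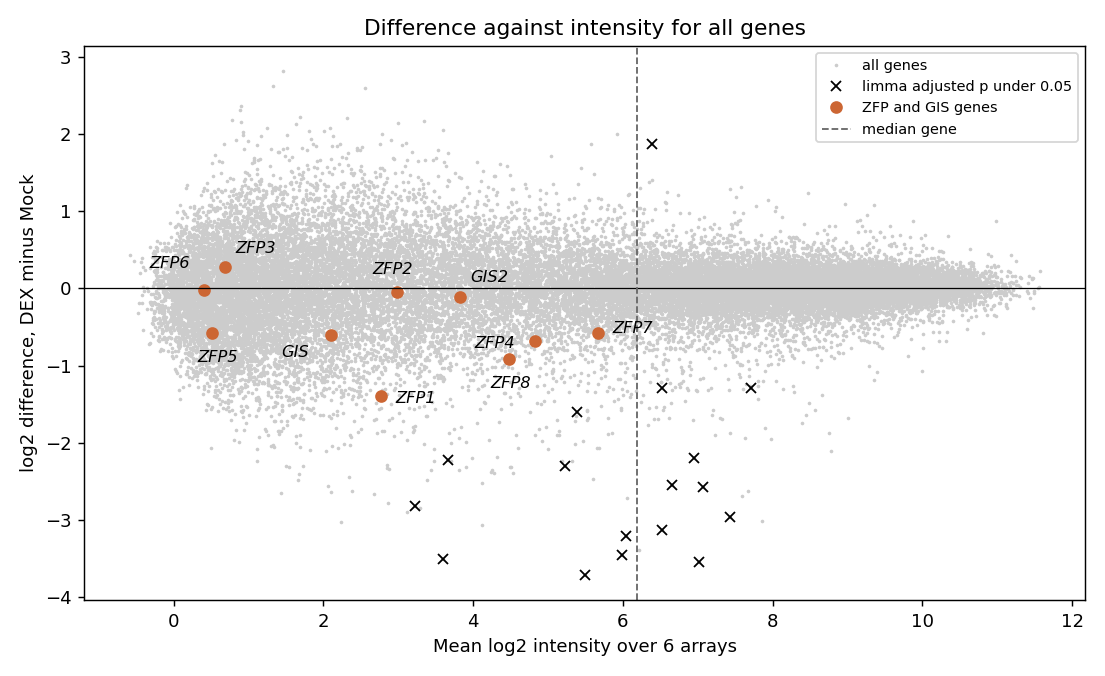
Log2 difference, DEX minus Mock, against mean log2 intensity over the 6 arrays for 32627 genes (grey), with the 17 genes called by limma as crosses, the 10 ZFP and GIS genes in orange and the median gene as a dashed line. The 10 genes sit in the dim, wide part of the cloud, between -1.39 (ZFP1) and 0.27 (ZFP3).

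GIS and ZFP8 were lower after DEX on average and GIS2 was nearly level. GIS, whose loss leaves inflorescence stems with few trichomes, read 5.23, 4.00 and 7.19 on Mock replicates 1 to 3 and 4.62, 2.47 and 3.71 on DEX replicates 1 to 3. One Mock array lay below the highest DEX array, so the groups overlapped. The log2 means were 2.41 ± 0.42 and 1.80 ± 0.46 (SD, n = 3), a difference of -0.61 (SE 0.32). With 16 added to each intensity the difference was -0.13 (SE 0.08).

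ZFP8, which acts beside GIS in gibberellin signalling, read 16.1, 43.5 and 40.8 on the Mock replicates and 18.2, 12.9 and 18.1 on the DEX replicates. Mock replicates 2 and 3 exceeded every DEX array, while Mock replicate 1, the array that stood apart in organelle transcripts, was level with DEX. The log2 means were 4.93 ± 0.80 for Mock and 4.02 ± 0.28 for DEX (SD, n = 3). The difference was -0.91 (SE 0.42) with all arrays. With 1 array left out it lay between -1.38 (without Mock replicate 1) and -0.66 (without Mock replicate 2).

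GIS2, the cytokinin-induced relative of GIS, read 13.5, 19.7 and 11.9 on the Mock replicates and 14.1, 20.9 and 8.60 on the DEX replicates. The groups covered the same range. The difference of -0.11 (SE 0.37) changed sign when Mock replicate 2 was left out (0.11) or DEX replicate 3 (0.22).

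ZFP5 and ZFP6, which act above the GIS genes, were close to the lowest readings on the arrays. ZFP5, which also promotes root hairs through CPC, read 2.01, 1.60 and 1.64 on the Mock replicates and 1.54, 1.28 and 0.792 on the DEX replicates. Every DEX reading was under every Mock reading, but the nearest were 1.54 and 1.60. The difference was -0.58 (SE 0.27), and it was -0.05 (SE 0.06) when 16 was added to each intensity, a setting that generally shrinks the log2 change of dim genes.

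ZFP6 read 0.982, 2.42 and 0.989 on the Mock replicates and 0.842, 1.27 and 2.13 on the DEX replicates. One array in each group was high, and the difference was -0.02 (SE 0.50). It lay between -0.36 and 0.42 when any 1 array was left out.

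Among ZFP3 and its relatives, ZFP1, ZFP4 and ZFP7 were lower after DEX on average and ZFP3 was not. In the deposited intensities ZFP1 had the largest difference of the family. It read 11.9, 11.9 and 9.54 on the Mock replicates and 3.57, 2.74 and 7.70 on the DEX replicates. The groups did not overlap, and DEX replicate 3 came closest to Mock. The log2 means were 3.47 ± 0.19 and 2.08 ± 0.77 (SD, n = 3), a difference of -1.39 (SE 0.40). Leaving out 1 array moved it between -1.82 and -1.08. With 16 added to each intensity it was -0.40 (SE 0.11) and no longer the largest. ZFP8 was then at -0.56, ZFP7 at -0.43 and ZFP4 at -0.43.

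ZFP7 was the brightest and steadiest feature of the family. It read 67.5, 56.3 and 62.6 on the Mock replicates and 51.0, 41.6 and 33.8 on the DEX replicates. All 3 DEX arrays were below all 3 Mock arrays. The log2 means were 5.95 ± 0.13 and 5.38 ± 0.30 (SD, n = 3), a difference of -0.58 (SE 0.18), which was -0.43 (SE 0.12) with 16 added and between -0.73 and -0.43 with 1 array left out.

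ZFP4, a partner of ZFP3 in damping abscisic acid responses, read 44.5, 28.6 and 36.9 on the Mock replicates and 17.1, 20.6 and 32.1 on the DEX replicates. The groups overlapped through Mock replicate 2 and DEX replicate 3. The difference was -0.68 (SE 0.29), from log2 means of 5.17 ± 0.32 to 4.49 ± 0.47 (SD, n = 3), and -0.43 (SE 0.17) with 16 added.

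ZFP3 read 0.898, 0.970 and 3.58 on the Mock replicates and 2.03, 0.807 and 3.35 on the DEX replicates. The groups covered the same range, and the third replicate was the highest in both. The difference of 0.27 (SE 0.75) was the only one above 0, and it turned below 0 without Mock replicate 1 (-0.08), Mock replicate 2 (-0.02) or DEX replicate 3 (-0.19).

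ZFP2, linked to the timing of floral organ shedding, differed from the rest in its spread. It read 7.96, 8.31 and 7.86 on the Mock replicates and 12.6, 2.49 and 15.1 on the DEX replicates. The Mock arrays were nearly equal, while 2 DEX arrays were above and 1 was below all of them. The difference was -0.04 (SE 0.70) with all arrays, 0.78 without DEX replicate 2, and 0.08 (SE 0.19) with 16 added to each intensity.

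DEX replicate 2 was the lowest DEX array for 5 of the 10 genes and the highest for 1. Its median deviation over the family was -0.62 (log2), where the other DEX arrays were at 0.00 and -0.02 and the Mock arrays between 0.14 and 0.34. Without it, 7 of the 10 differences were below 0 and the family's median was -0.50. ZFP1, ZFP4, ZFP5, ZFP7, ZFP8 and GIS were below 0 in each such fit, whichever array was left out. ZFP2, ZFP3, ZFP6 and GIS2 changed sign in at least 1.

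**Figure D3:**
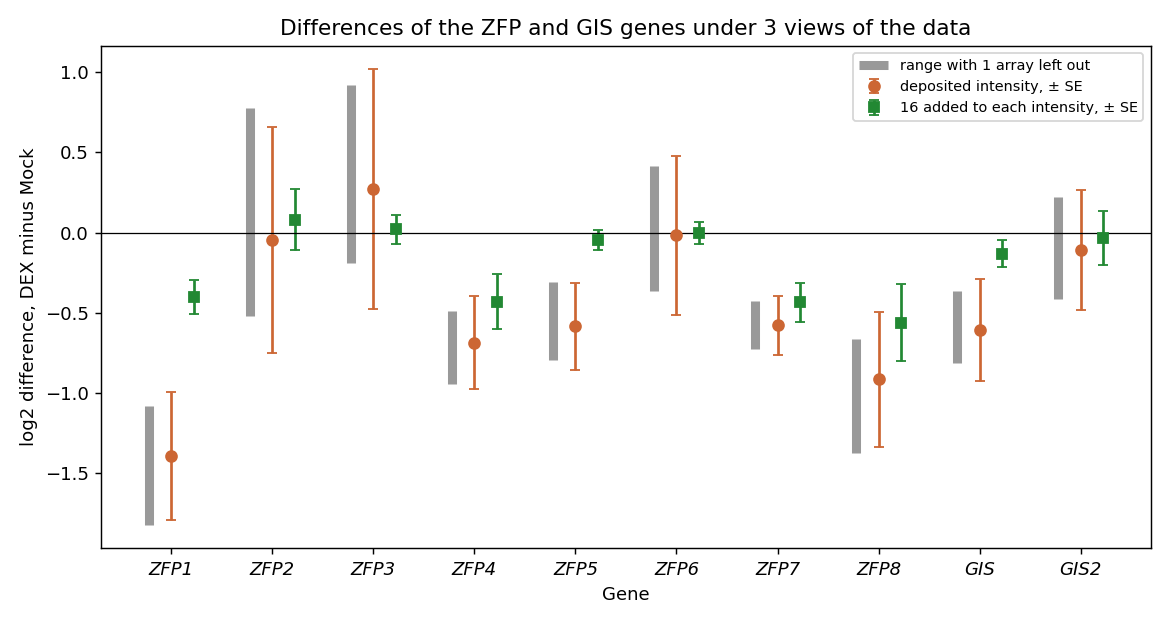
Log2 difference, DEX minus Mock, for each gene: orange points with SE bars use the deposited intensities, green squares with SE bars use intensities with 16 added, and grey bars span the fits with 1 array left out. The grey bars of ZFP1, ZFP4, ZFP5, ZFP7, ZFP8 and GIS stay below 0, and those of ZFP2, ZFP3, ZFP6 and GIS2 cross it.

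Other single-finger C2H2 genes did not share the low median of the family, though the difference between the lists was not tested. Of 10 such genes (SUP, RBE, KNU, JAG, NUB, ZFP10, ZFP11, LATE, TAC1 and URO), 6 were below 0, where 49.1% of all genes were. The median was -0.02 and none was called (limma, adjusted p under 0.05), where 0.0521% of all genes were. With 16 added to each intensity the median was -0.003, beside -0.088 for the family. Of these 10 genes 3 were brighter than the median gene, and none of the family was. At an unadjusted p under 0.05, 1 was higher, where 4.50% of all genes were, and 0 were lower, where 5.92% were. The higher one was LATE, a repressor of flowering. LATE read 2.03, 3.94 and 4.00 on the Mock replicates and 5.45, 7.11 and 7.61 on the DEX replicates, a difference of 1.07 (SE 0.31, limma adjusted p = 0.351). LATE was dim, and all 3 DEX readings exceeded the Mock readings. NUB, which acts with JAG in petal and stamen growth, differed by 0.37 (SE 0.16), ZFP10 by -0.74 (SE 0.59) and TAC1, an activator of telomerase, by -0.50 (SE 0.35).

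The trichome complex and its inhibitors, on which the GIS genes act, held the only called gene of the lists examined. Of 17 trichome initiation and patterning genes, 1 fell and none rose (limma, adjusted p under 0.05), where 0.0521% of all genes were called. Below 0 were 11 of the 17, where 49.1% of all genes were, and the median was -0.26, beside 0.01 for all genes. The lists were chosen with earlier results of these data known, so these counts describe them and test nothing. The gene that fell was TRY, a small MYB protein that keeps neighbouring cells from becoming trichomes. TRY read 304, 250.2 and 245 on the Mock replicates and 57.1, 52.6 and 64.1 on the DEX replicates. All DEX readings were far below all Mock readings, with a difference of -2.20 (SE 0.14, limma adjusted p = 0.0252). The call was lost with each array left out (limma adjusted p from 0.123 to 0.176) and with the replicate number as a fixed block (limma adjusted p = 0.2995). Those fits called no gene at all, so the loss is not particular to TRY. The difference stayed between -2.27 and -2.10 with 1 array left out, and TRY passed in 10 of 17 other settings.

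The 4 helix-loop-helix genes of that list did not pass, and MYC1, EGL3 and TT8 had differences below 0 while GL3 had one above it. MYC1, a helix-loop-helix protein that works with GL1, read 176, 150 and 180 on the Mock replicates and 101, 96.1 and 92.0 on the DEX replicates. Its difference was -0.80 (SE 0.12, limma adjusted p = 0.127), with no overlap of the groups. A second, dim MYC1 feature differed by -0.15 (SE 0.31), and the mean of both features gave -0.47. EGL3 read 311, 277 and 326 on the Mock replicates and 220, 185 and 202 on the DEX replicates, a difference of -0.59 (SE 0.12, limma adjusted p = 0.235). TT8 differed by -0.46 (SE 0.25) and GL3 by 0.20 (SE 0.40), both dim and with overlapping groups. Neither MYC1 nor EGL3 passed with the default prior, and both passed with a prior that follows intensity (limma adjusted p = 0.0172 for MYC1 and 0.0341 for EGL3). Over all 17 other settings the adjusted p of limma ran from 0.00981 to 0.438 for MYC1, which passed in 3, and from 0.0341 to 0.446 for EGL3, which passed in 2. CPC, an inhibitor related to TRY, differed by -0.75 (SE 0.22, limma adjusted p = 0.354). GL1, the MYB partner of the complex, was dim and differed by 0.67 (SE 0.28, limma adjusted p = 0.492).

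Genes of gibberellin and cytokinin, the hormones that act through the GIS genes, moved in both directions. None was called (limma, adjusted p under 0.05), where 0.0521% of all genes were. Of 14 gibberellin genes, 7 were below 0, where 49.1% of all genes were, and the median was 0.01. At an unadjusted p under 0.05, 3 were lower and 2 higher, where 5.92% and 4.50% of all genes were. GA20OX1, a gibberellin synthesis enzyme, differed by -0.79 (SE 0.20), and the DELLA repressors RGL3 and RGA1 by -0.70 (SE 0.20) and 0.31 (SE 0.10). GA3OX2, which catalyses the last step of synthesis, differed by 0.73 (SE 0.25) at readings under 10. Their limma adjusted p-values lay between 0.292 and 0.410.

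Of 12 cytokinin genes, 5 were below 0, where 49.1% of all genes were, and the median was 0.07. At an unadjusted p under 0.05, 1 was lower and 1 higher, where 5.92% and 4.50% of all genes were. ARR4, a response regulator, differed by 0.59 (SE 0.23, limma adjusted p = 0.469). The cytokinin receptors WOL and HK3 differed by -0.32 (SE 0.12) and 0.25 (SE 0.11), and the response regulator ARR5 by 0.18 (SE 0.16). A second, similarly bright WOL feature differed by -0.23 (SE 0.13).

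Abscisic acid genes, the setting in which ZFP3 and ZFP4 are known, were all at or below 0. Of 6 genes, 6 were below 0, where 49.1% of all genes were. The median was -0.24 and none was called (limma, adjusted p under 0.05), where 0.0521% of all genes were. At an unadjusted p under 0.05, 1 was lower, where 5.92% of all genes were. That gene was RAB18, a dehydrin induced by abscisic acid and drought. RAB18 read 69.5, 93.5 and 62.9 on the Mock replicates and 22.5, 24.3 and 21.0 on the DEX replicates. Every DEX reading was below every Mock reading. The difference was -1.72 (SE 0.18, limma adjusted p = 0.0898), and it passed with the prior that follows intensity (limma adjusted p = 0.00289). Over 16 other settings the adjusted p of limma ran from 0.00289 to 0.2995, and RAB18 passed in 3. A second, similarly bright RAB18 feature differed by -1.55 (SE 0.31). ABI1, a phosphatase that restrains the response, differed by -0.21 (SE 0.11), and the regulators ABI3 and ABI4 by -0.95 (SE 0.42) and -0.27 (SE 0.60), both dim.

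Of 7 genes of floral organ abscission, the process tied to ZFP2, none was called and none had an unadjusted p under 0.05 (limma). Among all genes, 0.0521% were called and 10.4% had such an unadjusted p. IDA, the peptide signal of shedding, read between 1.19 and 3.70 and differed by -0.51 (SE 0.43). Its receptor HAE read between 155 and 224 and differed by 0.16 (SE 0.16). The wall-degrading enzymes ADPG2 and ADPG1, both dim, differed by -0.29 (SE 0.22) and -0.26 (SE 0.22).

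**Figure D4:**
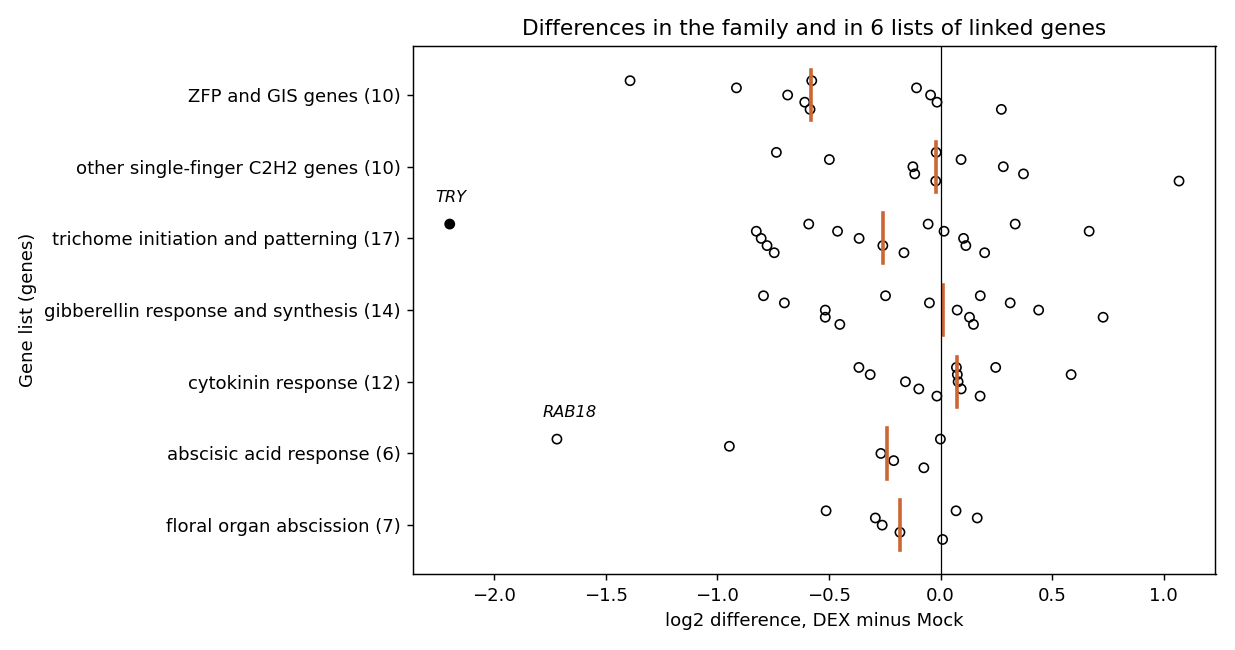
Log2 difference, DEX minus Mock, for the 10 ZFP and GIS genes and for each gene of 6 linked lists, with the median of each row as an orange bar; filled points passed limma's adjusted p of 0.05. TRY, at -2.20, is the only filled point, and the medians run from -0.58 for the family to 0.07 for cytokinin genes. With 16 added to each intensity the family's median was -0.088 and not the lowest. Those of trichome and abscisic acid genes were then -0.13 and -0.14.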

How the data were processed

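RNA of 6 inflorescence samples, 3 Mock and 3 DEX, was labelled with Cy3 and hybridised to 1-colour NimbleGen arrays, per the labels. The authors deposited linear intensity values made with RMA, per the submitters' processing notes; the RMA version and the array design are not stated in the sources used here. Of 39640 rows, 2522 hold no value. The log2 of each intensity was taken, and the feature with the highest mean log2 intensity stood for its locus, which gave 32627 genes, of which 31993 matched RefSeq's gene table for names. DEX was compared with Mock in limma 3.58.1 (R 4.3.3, lmFit and eBayes, two-sided, Benjamini-Hochberg over all genes, threshold 0.05, no filter on dim genes). The fit was tested on simulated data in which changes were planted only in genes brighter than the median gene. That test does not show how well changes in the 10 dim genes would be found. Replicates are the submitters' separate samples; whether they were separate plantings is not said, and p-values then measure only the spread between these samples. Precision is limited by the number of arrays.

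The members and lists were chosen with earlier results of these data known. Named genes were the 10 members, SUP, and, per list, up to 4 genes by smallest unadjusted p; GL1, GL3, TT8, and other genes only counted or listed by name, were chosen after their values were seen. A rule to name genes of like pattern needed a member brighter than the median gene, and there was none. GIS3 was left out of its list because its symbol is not in the gene table. Members are described without p-values of their own. Their counts past a p threshold are given beside the share of all genes and test nothing. Deviations of same-numbered arrays from their group means correlated weakly (0.028, 0.063 and 0.056 across genes), and the main fit did not take the numbers as pairs. Other settings covered blocks, filters, normalization, priors, array weights, features, an offset of 16 and leaving out arrays.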

Additional observations from a re-analysis of the deposited data

How the results depend on the processing

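Against 17 genes called in all, the count was 105 without the dimmest 25% of genes, 282 without genes below the median intensity, 431 with the trended and robust prior, 204 with 16 added to each intensity and 96 at an adjusted p under 0.1. It was 0 with any 1 array left out (2806 to 3372 genes at an unadjusted p under 0.05) and 0 with the replicate block as a fixed factor (3513 genes at an unadjusted p under 0.05); as a random effect the block gave 20. Each Mock array correlated best with the DEX array of its own number, weakly, which is a hint from the data and not from the design. The count of called genes among the 66 of the 6 linked lists, 1 (TRY), was 2 without the dimmest 25% and at an adjusted p under 0.1, 3 without genes below the median, 4 with the trended and robust prior and 3 with 16 added, and 0 with the fixed replicate block or with any 1 array left out. The family's median difference, -0.58, was -0.088 with 16 added, which generally shrinks the log2 change of dim genes. With 1 array left out it lay between -0.65 and -0.48. None of the 10 genes was called in any setting that tested them. All 10 were dimmer than the median gene, so that filter tested none of them, and the filter on the dimmest 25% tested 6. The feature of highest mean linear intensity, a choice added after seeing the data, gave 19 called genes. Dim signal limits all 10 genes.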

Other observations

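Genes that flank the family on the chromosomes gave no called gene. Of 20 protein-coding neighbours in RefSeq's gene order, 1 on each side of every family gene, 19 were measured. Of these, 11 were below 0, where 49.1% of all genes were. None was called (limma, adjusted p under 0.05), where 0.0521% of all genes were. At an unadjusted p under 0.05 there were 5, 3 higher and 2 lower, where 10.4% of all genes were past it, and the trended and robust prior called 0. ARR4, which lies beside ZFP5, was bright, at 433, 320 and 254 on the Mock replicates and 554, 501 and 427 on the DEX replicates, with a difference of 0.59 (SE 0.23) that ran opposite to the -0.58 (SE 0.27) of ZFP5. TAF5, a general transcription factor subunit beside ZFP3, read 636, 738 and 690 on the Mock replicates and 863, 800 and 922 on the DEX replicates, a difference of 0.32 (SE 0.12, limma adjusted p = 0.431). CLE18, a signal peptide gene beside ZFP4, was dim and differed by 1.17 (SE 0.34). The lower ones were AT1G80720 beside ZFP1, at -0.26 (SE 0.10), and the dim AT1G67025 beside ZFP6, at -0.75 (SE 0.18). Both had no overlap of the groups, where 9.20% of all genes were lower without overlap. The neighbours named here other than ARR4 were chosen after their values were seen.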
